A study of Mus musculus with 10 samples.

Results

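The Peg3, Mest and Peg10 imprinted domains of the mouse were followed through 9 genes, Peg3, Usp29 and Zim1 on chromosome 7, and Mest, Copg2, Peg10, Sgce, Ppp1r9a and Asb4 on chromosome 6. The genes were taken by symbol from a table of 36066 genes, and all 9 were found. RNA-seq had been done on 10 libraries in 5 groups of 2 replicates, all of strain C57BL6. The ESCs were a female embryonic stem cell line from fertilized embryos, and the pESCs were a parthenogenetic line from activated oocytes, which carries chromosomes of maternal origin and none from a father. According to the study's methods both lines carry an Actin-GFP transgene and had been grown on feeder cells. The ESC-PGCLCs and pESC-PGCLCs were primordial germ cell-like cells made from these lines through epiblast-like cells, with 4 days in 500 ng/mL BMP4 together with SCF, EGF and LIF, and sorted for SSEA1 and CD61. The PGCs were primordial germ cells sorted from female embryonic gonads, and their labels give no embryonic day. The study's methods describe PGCs of an earlier and a later day, between which imprints are known to be erased, so every PGC value here may be of either stage. Each line is named in the singular in the labels, so a difference between pESCs and ESCs is one between 2 lines, and the p-values measure the spread between these libraries, which may be technical.

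Imprinted genes are transcribed mainly from the copy of one parent. In each of these domains a differentially methylated region at the promoter of the name gene is methylated on the maternal copy, and Peg3, Usp29, Mest, Peg10 and Sgce are known as paternally expressed. Zim1 is known as maternally expressed, and Copg2, Ppp1r9a and Asb4 as preferentially maternal in some tissues, such as brain or placenta. Parental methylation is erased in the primordial germ cells of both sexes and set anew in the gametes.

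The authors deposited TPM, reads per unit of gene length as a share of a fixed library total, so levels can be set side by side between genes. Multiplied by exon length, 95.4% to 96.2% of the low values were whole reads within 0.02, and the recovered depth lay between 6779838 reads in an ESC-PGCLC library and 18572901 in an ESC library. Differences are on the scale of log2(TPM + 1), which understates those of genes near or under 1 TPM, and were tested with limma over the 27259 genes that reached 0.1 TPM in 2 or more libraries. Calls needed an adjusted p under 0.05 and a 2-fold difference. The smallest p of an exact permutation test of 2 libraries against 2 is 0.333, so the p-values lean on the variance model of limma. All 9 genes passed the filter, Peg10 through the PGC libraries alone. Over all genes tested the median difference of pESCs from ESCs was -0.06, and 0.28 after each library was centred on the median of its widely expressed genes. The same centring took the median difference between pESC-PGCLCs and pESCs from 0.22 to -0.51, so small differences depend on the scaling.

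The labels were set against marker genes. All 6 pluripotency markers were at 1 TPM or more in both ESC and both pESC libraries. All 9 germ cell markers were so in the PGCLC and PGC libraries, but also in both pESC libraries, and 8 of them in both ESC libraries. Their summed level was 1554 to 2739 TPM in PGCLCs and PGCs against 45.2 to 58.5 TPM in the stem cells. Dazl made up most of the higher sums. Prdm14 did not rise in ESC-PGCLCs, at 16.73 and 18.01 TPM against 17.19 and 18.08 TPM in ESCs. Its pESC-PGCLC and pESC libraries overlapped. The PGCLC libraries held Dazl at 1084 to 1821 TPM and Ddx4, a gene of later germ cells, at 186 to 281 TPM. Pou5f1, a pluripotency gene that germ cells also use, was at 0.37 and 0 TPM in the ESC-PGCLC libraries. The other 5 pluripotency markers were at 1 TPM or more in both. Of the 6, Sox2 alone was higher there than in ESCs, at 97.3 and 110.5 TPM against 32.7 and 44.6 TPM. Markers of other cells moved with the groups. The 8 blood markers summed to 0.109 to 4.58 TPM in the stem cells, 487 and 556 TPM in ESC-PGCLCs, 3398 and 2870 TPM in pESC-PGCLCs, and 2147 and 1961 TPM in PGCs. The 9 measured markers of gonadal somatic cells summed to 3.83 to 4.82 TPM, 18.5 and 23.8 TPM, 50.9 and 45.5 TPM, and 94.7 and 85.7 TPM in the same order. In the stem cells Nr5a1 was at 0 in all 4 libraries, while Amhr2 made up most of the sum, at 3.57 to 4.71 TPM. Amhr2 alone of the 9 was lower in ESC-PGCLCs than in the stem cells, at 1.26 and 2.33 TPM. The 10 fibroblast markers summed to 0.483 to 0.889 TPM in the stem cells, 6.14 and 6.23 TPM in ESC-PGCLCs, 13.0 and 10.8 TPM in pESC-PGCLCs and 13.2 and 14.2 TPM in PGCs, with Thy1 at 0 in both ESC-PGCLC and both PGC libraries. The sort of PGCLCs for SSEA1 and CD61 is meant to leave such cells out. According to the study's methods PGCs were sorted for both markers or with magnetic beads for SSEA1 alone. The part of such other cells in the differences between PGCLCs, PGCs and stem cells was not tested. In bulk RNA fewer cells of a type and less RNA per cell cannot be told apart.

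**Figure D1:**
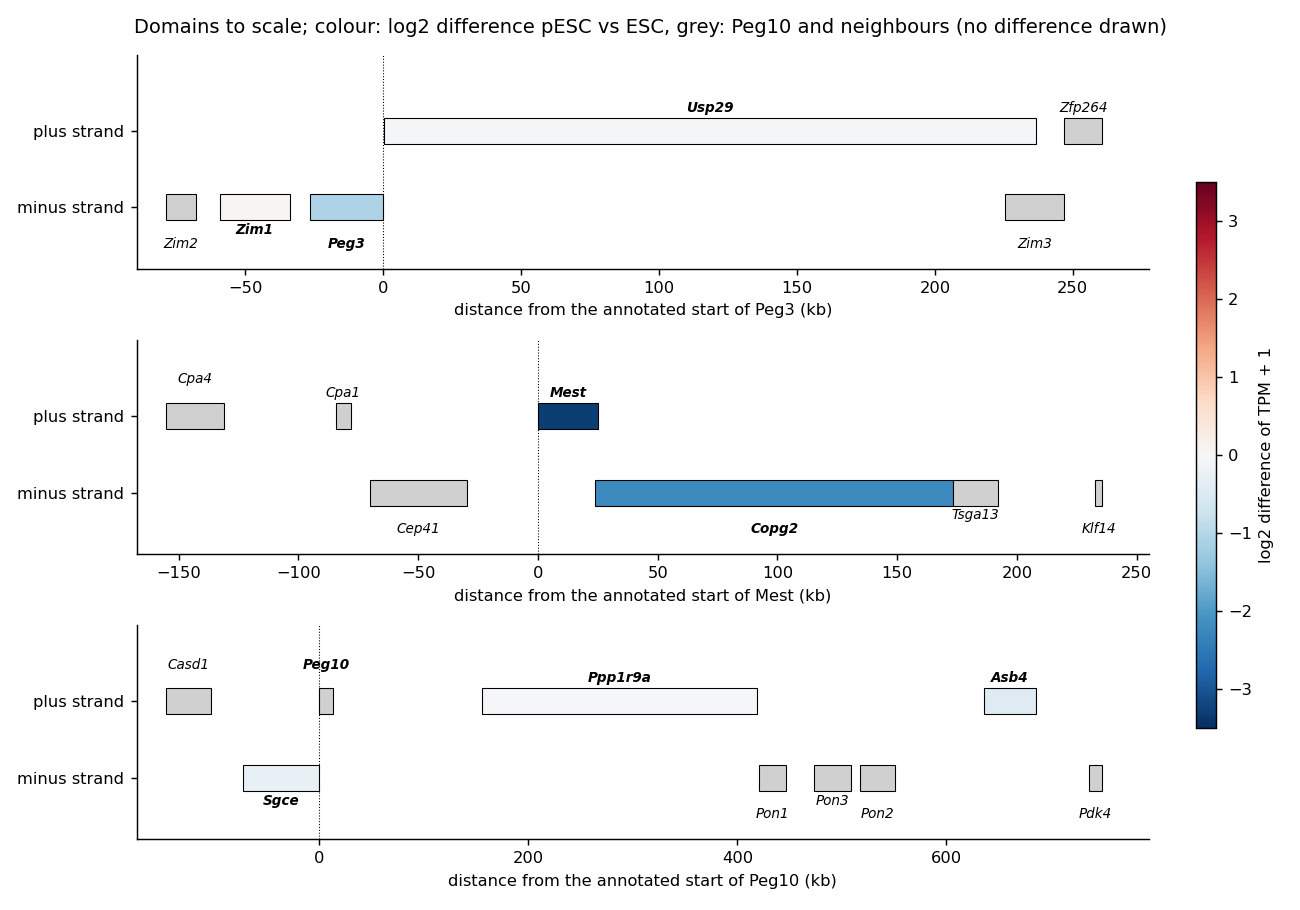
The 3 domains to scale, with distance in kb from the annotated start of Peg3, Mest or Peg10 on the horizontal axis and the 2 strands on the vertical axis; bars are genes. Colour gives the log2 difference of TPM + 1 between pESCs and ESCs, and grey marks neighbours and Peg10. Mest (-3.33) and Copg2 (-2.24), which meet at their 3′ ends, are the darkest bars, and Peg3 (-1.09) is the only other coloured gene that was called.

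Of the 9 genes, 3 were called between pESCs and ESCs, against 0.781% of all genes tested. Mest, Copg2 and Peg3 were lower in pESCs, and the median difference over the 9 genes was -0.29. Between pESC-PGCLCs and ESC-PGCLCs 1 of the 9 genes was called, against 13.4% of all genes, and this was Sgce, higher in pESC-PGCLCs. Between ESC-PGCLCs and ESCs 3 of the 9 were called, against 29.8% of all genes, with Peg3 and Asb4 higher and Mest lower in ESC-PGCLCs. Between pESC-PGCLCs and pESCs 7 of the 9 were called, against 27.6% of all genes, and all 7 were higher in pESC-PGCLCs, as were 20.8% of all genes. The exceptions were Peg10 and Ppp1r9a. Median centring turned the calls over all genes in that comparison from 5681 higher and 1854 lower to 2280 higher and 5010 lower, and took the 9 genes from 7 calls to 4, those of Peg3, Mest, Copg2 and Asb4. The difference between the 2 differentiations, the interaction of origin and differentiation, was called for 4 of the 9 genes, Peg3, Mest, Copg2 and Sgce, against 19.1% of all genes.

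The PGCs were compared with each kind of PGCLC, and both comparisons share the PGC libraries. Between PGCs and ESC-PGCLCs 3 of the 9 genes were called, against 13.8% of all genes, and Mest, Copg2 and Sgce were higher in PGCs. Between PGCs and pESC-PGCLCs limma called 0 of the 9 genes, against 3.67% of all genes, with 6 at an unadjusted p under 0.05 and 1, Ppp1r9a, called by voom on the recovered reads. Over all genes 7955 of 27259 were at an unadjusted p under 0.05 in that comparison.

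**Figure D2:**
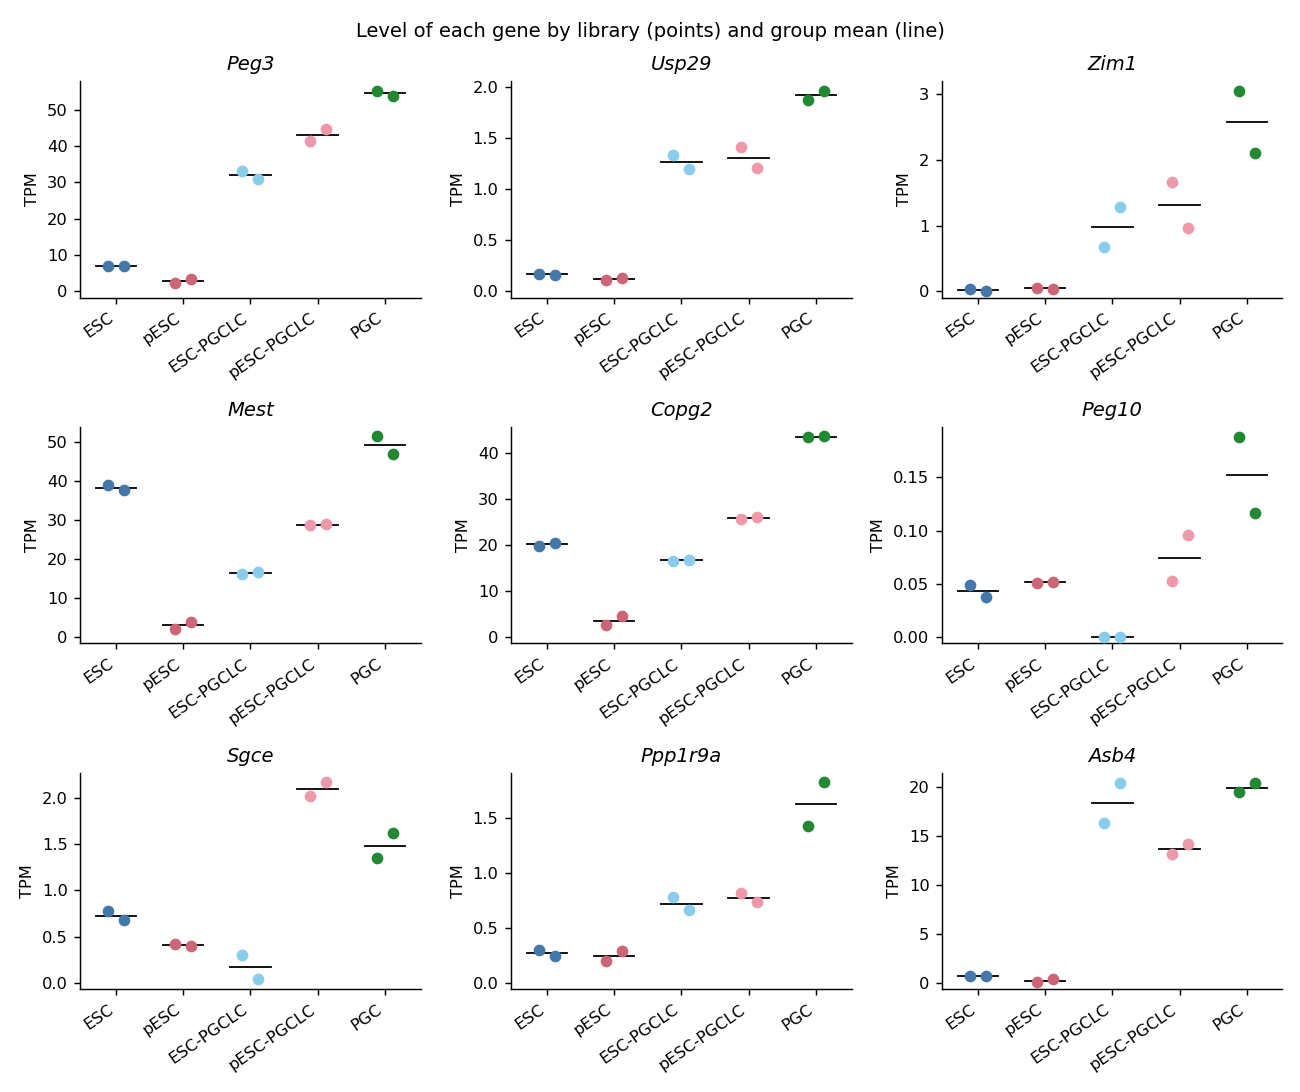
Level of each gene in TPM on a linear vertical axis for the 5 groups; points are the 2 libraries of a group and the line is their mean. Mest and Copg2 are lowest in pESCs and highest in PGCs, Peg3 and Asb4 are low in both stem cell groups, and the Peg10 panel spans 0 to 8 reads per library.

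In the Mest domain, Mest lies on chromosome 6 from 30723547 to 30748465 on the plus strand (GRCm38, GENCODE M21), and encodes a protein of the alpha/beta-hydrolase fold family. Copg2 lies on the minus strand from 30747554 to 30896794 and encodes a gamma subunit of the COPI vesicle coat. The genes overlap by 912 exon bases at their 3′ ends, which is 23.1% of the exon bases of Mest and 17.8% of those of Copg2. The strand setting of the read counting is not given in the sources used here, so reads in the overlap cannot be told apart. RefSeq gives 3 promoter windows of 300 bases for Mest (GRCm38.p6). Of these, 1 at chr6:30733256-30733555 holds 8 CpG and 0 copies of TGCCGC. The other 2, which overlap, hold 17 CpG each, more than 68.6% of all windows. Each holds 2 copies of TGCCGC, counted on both strands, the hexamer that ZFP57 binds where it is methylated. Of the 32851 promoter windows 11.6% hold TGCCGC. The 250 bases before a RefSeq start of Mest, at chr6:30737800-30738049 on the plus strand, are shown, with TGCCGC or its reverse complement in capitals. They come from 1 of the 2 overlapping windows that hold TGCCGC, and the window with 0 copies is not shown. Mest is shown because, of the genes followed, it had the largest difference between the stem cell lines.

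Mest: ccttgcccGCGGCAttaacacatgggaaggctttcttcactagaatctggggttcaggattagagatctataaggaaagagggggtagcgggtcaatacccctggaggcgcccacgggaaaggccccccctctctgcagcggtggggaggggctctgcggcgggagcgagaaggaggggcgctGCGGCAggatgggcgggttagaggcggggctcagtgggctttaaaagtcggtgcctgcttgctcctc

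Mest was at 39.0 and 37.8 TPM in the ESC libraries and at 2.13 and 3.92 TPM in the pESC libraries. In reads this was 1416 and 1771 against 74 and 134. Both pESC libraries lay far below both ESC libraries, but pESCs did hold Mest reads. The mean in pESCs was 12.7 times lower, and single pairs of libraries gave between 9.64 and 18.3 times. The log2 difference was -3.33 (SE 0.20, adjusted p = 0.0025 from limma), and its 95% interval ran from -3.80 to -2.85.

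In ESC-PGCLCs Mest was at 16.2 and 16.8 TPM, below the ESCs from which they came by 2.32 times (log2 difference -1.17, SE 0.20, adjusted p = 0.00203 from limma). In pESC-PGCLCs it was at 28.8 and 29.0 TPM, 9.54 times above pESCs (2.93, SE 0.20, adjusted p = 3.1e-05). The call between ESC-PGCLCs and ESCs was lost after quantile normalization, where the difference was -0.95 (adjusted p = 0.00189) and under the 2-fold minimum. The 2 differentiations thus had differences of opposite sign, and the interaction was 4.10 (SE 0.29, adjusted p = 0.000323), or 3.26 after quantile normalization and 3.35 after median centring, both called. Between the PGCLCs the order of the origins was turned round against that in stem cells, by a difference that was not called. It was 0.36 (adjusted p = 0.0844 from limma) after median centring and 0.41 (adjusted p = 0.12) after quantile normalization. The level in pESC-PGCLCs was 1.75 times that in ESC-PGCLCs, with an adjusted p of 0.0293 from limma but a log2 difference of 0.77, under the 2-fold minimum. In PGCs Mest was at 51.5 and 47.1 TPM, the highest of the 5 groups and 2.98 times the level of ESC-PGCLCs (1.52, adjusted p = 0.00244). Against pESC-PGCLCs the ratio was 1.71 (0.75, 95% interval 0.28 to 1.22, adjusted p = 0.0587). After median centring the log2 difference between PGCs and ESC-PGCLCs was 0.91, under the 2-fold minimum.

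Copg2 was at 19.9 and 20.5 TPM in ESCs and at 2.62 and 4.53 TPM in pESCs, on 937, 1245, 118 and 201 reads. The pESC libraries lay below the ESC libraries, as for Mest, and by a smaller ratio. The mean was 5.64 times lower in pESCs, with 4.39 to 7.80 times between single libraries (log2 difference -2.24, SE 0.19, adjusted p = 0.00566 from limma). Copg2 was at 16.6 and 16.7 TPM in ESC-PGCLCs, where the difference from ESCs was -0.26 with an interval of -0.71 to 0.19. In pESC-PGCLCs it was at 25.7 and 26.2 TPM, 7.26 times the level of pESCs (2.59, SE 0.19, adjusted p = 4.1e-05). The interaction was 2.85 (SE 0.27, adjusted p = 0.000574). In PGCs both libraries were at 43.6 and 43.7 TPM, 2.61 times the level of ESC-PGCLCs (1.33, adjusted p = 0.00309) and 1.68 times that of pESC-PGCLCs (0.73, adjusted p = 0.0559). After median centring the first of these was 0.73, and after quantile normalization 0.94, both under the 2-fold minimum. When the fit held the compared groups alone, neither Mest nor Copg2 was called between pESCs and ESCs (adjusted p = 0.219 and 0.23 from limma, on unchanged differences) or between PGCs and ESC-PGCLCs (both 0.0595).

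**Figure D3:**
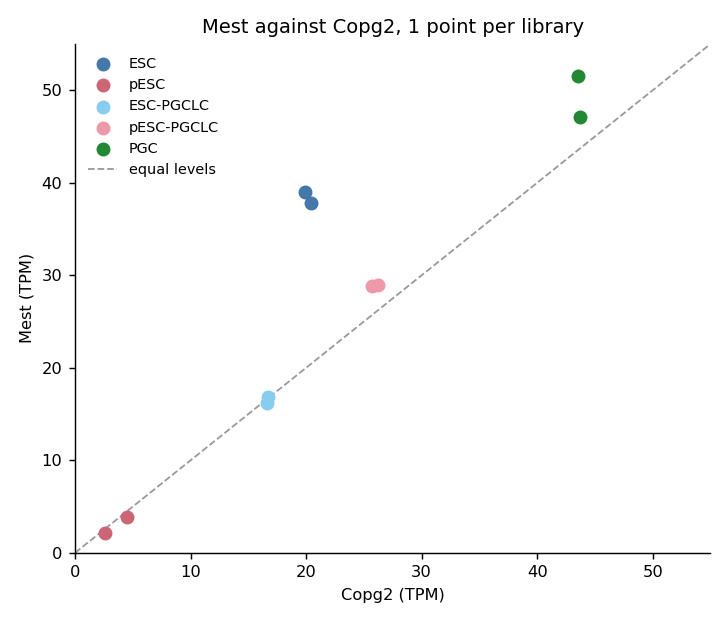
Mest on the vertical axis against Copg2 on the horizontal axis, both in TPM, with 1 point per library and a dashed line of equal levels. The ESC libraries stand above the line with Mest at 1.96 and 1.85 times Copg2, and the other 8 libraries lie close to it, from 0.814 to 1.18.

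The ratio of Mest to Copg2 was 1.90 ± 0.0814 (SD, n = 2) in ESCs and 0.840 ± 0.0363 in pESCs. It was 0.989 ± 0.0211 in ESC-PGCLCs, 1.11 ± 0.0121 in pESC-PGCLCs and 1.13 ± 0.0739 in PGCs. ESCs were thus the one group in which Mest stood well above Copg2, and the ratio was no higher than 1.18 in any other library. The part of the shared 3′ bases in these ratios was not tested.

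In the Peg3 domain, Peg3, which encodes a large zinc finger protein, lies on chromosome 7 from 6703892 to 6730431 on the minus strand. Usp29, a gene for a ubiquitin-specific protease, runs the other way from 6730578 to 6967219, so that 147 bases lie between the annotated starts. Zim1, a zinc finger gene, lies beyond the 3′ end of Peg3, from 6671269 to 6696450 on the minus strand. Of the exon bases of Usp29, 14.8% are shared with Zim3 and Gm27675. The RefSeq windows of Peg3 and Usp29 hold 13 and 17 CpG and 0 copies of TGCCGC, and that of Zim1 20 CpG and 1 copy. The stretch between the RefSeq starts of Peg3 and Usp29, at chr7:6730420-6730582 in the direction of Peg3, is shown because both genes start from it, with its 5 CpG in capitals.

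Peg3-Usp29: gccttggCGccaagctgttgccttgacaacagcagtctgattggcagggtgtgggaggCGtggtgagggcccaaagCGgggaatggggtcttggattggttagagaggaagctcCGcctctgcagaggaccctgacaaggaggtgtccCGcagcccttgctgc

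Peg3 was at 6.92 and 7.01 TPM in ESCs and at 2.19 and 3.41 TPM in pESCs, on 849, 1111, 256 and 394 reads. The pESC libraries lay below the ESC libraries, by a smaller ratio than for Mest or Copg2. The mean was 2.49 times lower, with 2.03 to 3.21 times between single libraries (log2 difference -1.09, SE 0.17, adjusted p = 0.0401 from limma). This call was the least firm of the 3. It was lost without ESC replicate 1 (-1.10, adjusted p = 0.245), without ESC replicate 2 (-1.08, adjusted p = 0.145) and without pESC replicate 1 (-0.85, adjusted p = 0.066). It was also lost after median centring (-0.75), after quantile normalization (-0.85), in the fit of the compared groups alone (adjusted p = 0.254) and with replicate number as a block (adjusted p = 0.0652).

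Peg3 rose in both differentiations, to 33.0 and 30.9 TPM in ESC-PGCLCs and to 41.3 and 44.5 TPM in pESC-PGCLCs. These were 4.59 times the level of ESCs (2.05, SE 0.17, adjusted p = 4.3e-05 from limma) and 15.3 times that of pESCs (3.55, SE 0.17, adjusted p = 6.5e-06). The interaction was 1.50 (SE 0.24, adjusted p = 0.00376), but 0.76 after median centring and 0.88 after quantile normalization, both under the 2-fold minimum. Between the PGCLCs the ratio was 1.34 in favour of pESC-PGCLCs, with a log2 difference of 0.41 and an adjusted p of 0.124 from limma. That difference was 0.00 after median centring and 0.04 after quantile normalization. PGCs held the most Peg3, with 55.2 and 53.8 TPM, or 1.71 times ESC-PGCLCs (0.75, adjusted p = 0.0139, under the 2-fold minimum) and 1.27 times pESC-PGCLCs (0.34, adjusted p = 0.232). The first of these differences was 0.15 after median centring (adjusted p = 0.384 from limma) and 0.35 after quantile normalization (adjusted p = 0.135).

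Usp29 was far lower than Peg3 throughout. It was at 0.174 and 0.158 TPM in ESCs and 0.107 and 0.134 TPM in pESCs, where the log2 difference was -0.06 with an interval from -0.38 to 0.26. In ESC-PGCLCs it was at 1.34 and 1.20 TPM, which was 7.62 times the level of ESCs. On the log2 scale this difference was 0.96 (adjusted p = 0.000725 from limma), just under the 2-fold minimum, and 1.00 and called without ESC-PGCLC replicate 2. In pESC-PGCLCs Usp29 was at 1.41 and 1.20 TPM, 10.8 times the level of pESCs (1.04, SE 0.14, adjusted p = 0.000555). This call was lost after median centring (0.31, adjusted p = 0.125), after quantile normalization (0.78) and without pESC-PGCLC replicate 1 (0.98, adjusted p = 0.00525). The PGCLC groups overlapped (0.02, 95% interval -0.29 to 0.34), and the interaction was 0.08 (95% interval -0.37 to 0.53). PGCs were at 1.87 and 1.97 TPM, above both kinds of PGCLC, with differences of 0.37 and 0.34 that were not called. The ratio of Peg3 to Usp29 was 42.0 ± 3.26 (SD, n = 2) in ESCs, 22.9 ± 3.55 in pESCs, 25.3 ± 0.811 in ESC-PGCLCs, 33.1 ± 5.42 in pESC-PGCLCs and 28.4 ± 1.47 in PGCs.

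Zim1 had 3 and 1 reads in ESCs and 4 and 3 reads in pESCs, so no difference between the lines was detectable at this depth. The ratio of their reads was 2.12 with an exact 95% counting interval from 0.538 to 9.85. In ESC-PGCLCs it had 26 and 42 reads (0.676 and 1.28 TPM), 40.6 times the level of ESCs with a counting interval from 15.2 to 153. The log2 difference of 0.93 (adjusted p = 0.0102 from limma) was under the 2-fold minimum, and was 1.15 and called without ESC-PGCLC replicate 1. In pESC-PGCLCs it had 114 and 73 reads (1.66 and 0.959 TPM), 26.0 times the level of pESCs with a counting interval from 12.4 to 65.6. This difference was called (1.12, SE 0.22, adjusted p = 0.00443), but not after median centring (0.39, adjusted p = 0.164), after quantile normalization (0.88) or without pESC-PGCLC replicate 1 (0.90, adjusted p = 0.0334). The PGCLC groups overlapped. PGCs held Zim1 at 3.04 and 2.11 TPM, 2.64 times ESC-PGCLCs (0.86, adjusted p = 0.0234). Without ESC-PGCLC replicate 2 or PGC replicate 2 that difference was 1.08 and 1.05. It was 0.25 after median centring and 0.38 after quantile normalization. Against pESC-PGCLCs the difference of PGCs was 0.64 (adjusted p = 0.109).

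**Figure D4:**
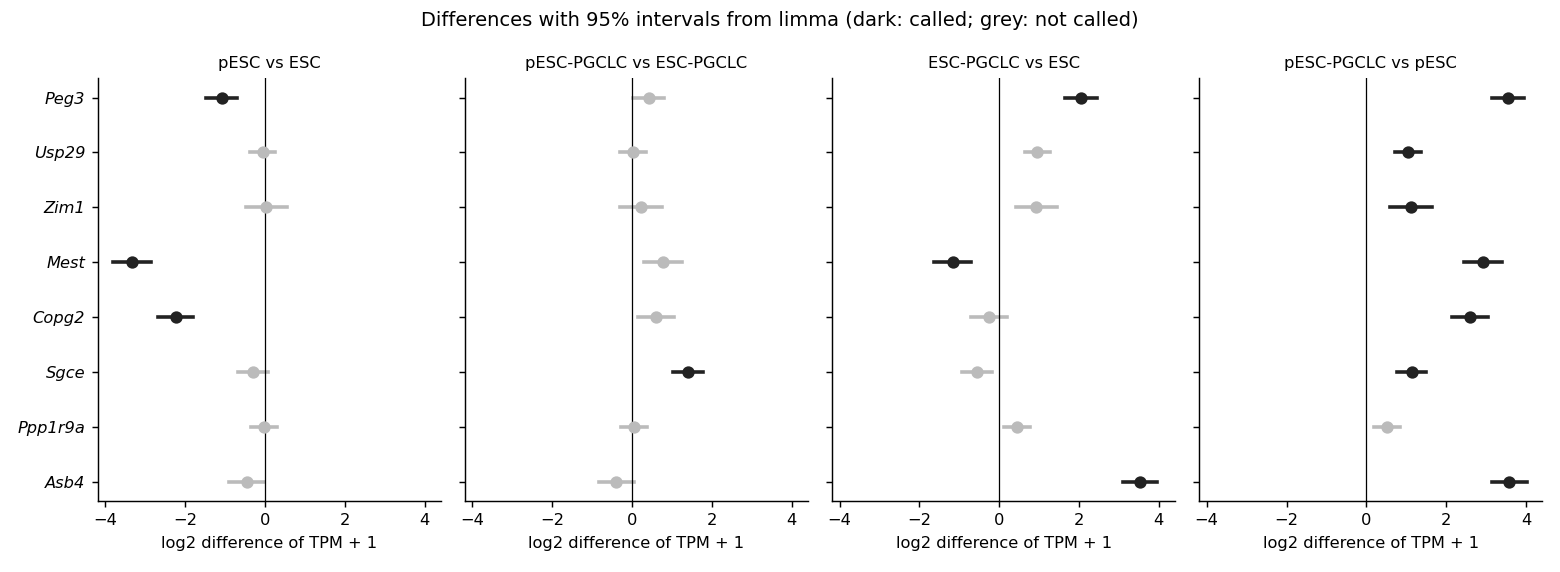
Log2 difference of TPM + 1 on the horizontal axis, with 95% intervals from limma, for 8 genes in 4 comparisons; dark marks are called and grey marks are not, and Peg10 is left out because of its few reads. Mest lies at -3.33 and 0.77 for origin and at -1.17 and 2.93 for the 2 differentiations, while Asb4 lies at 3.52 and 3.58 in both differentiations.

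The Peg10 domain holds a head-to-head pair. Peg10, a retrotransposon-derived gene needed in the placenta, lies on chromosome 6 from 4747306 to 4760517 on the plus strand. Sgce, which encodes the membrane glycoprotein epsilon-sarcoglycan, lies from 4674350 to 4747207 on the minus strand, with 99 bases between the annotated starts. Ppp1r9a, for the actin-binding phosphatase scaffold neurabin, lies from 4902917 to 5165661, and Asb4, for a substrate subunit of ubiquitin ligases, from 5383386 to 5433022, both on the plus strand. RefSeq windows were matched for Ppp1r9a and Asb4. One Ppp1r9a window holds 48 CpG, more than 98.8% of all windows, and 1 copy of ATGGCG, the core of the YY1 motif that 8.93% of windows hold on either strand. The Asb4 windows hold 6 and 8 CpG.

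Peg10 had 3 reads in each ESC and each pESC library, 0 in both ESC-PGCLC libraries, 3 and 6 in pESC-PGCLCs, and 8 and 7 in PGCs. Its highest level was 0.188 TPM. In the ESC-PGCLC libraries 3 reads, the limit that a count of 0 allows, correspond to 0.0946 and 0.111 TPM, which is above the level in ESCs, so no difference between these groups was detectable at this depth.

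Sgce was at 0.777 and 0.674 TPM in ESCs and 0.418 and 0.402 TPM in pESCs, on 76, 85, 39 and 37 reads. The pESC libraries lay below the ESC libraries by a ratio of 1.77, with a log2 difference of -0.29 that was not called (95% interval -0.66 to 0.08, adjusted p = 0.431 from limma) and was 0.04 after median centring. In ESC-PGCLCs Sgce had 15 and 2 reads (0.297 and 0.0463 TPM), 3.96 times below ESCs with an exact counting interval from 2.40 to 6.97. On the log2 scale this was -0.57 (adjusted p = 0.0212), under the 2-fold minimum, and with a pseudocount of 0.1 TPM it was -1.77 and called. In pESC-PGCLCs Sgce was at 2.01 and 2.16 TPM, the highest of the 5 groups. This was 11.5 times the level of ESC-PGCLCs with a counting interval from 7.11 to 19.99 (1.41, SE 0.16, adjusted p = 0.000828), and 5.09 times that of pESCs (1.13, SE 0.16, adjusted p = 0.000815). The ESC-PGCLC libraries lay well apart, at 15 and 2 reads. Counting intervals for Sgce against them pool both libraries and do not cover the spread between them.

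The interaction for Sgce was 1.70 (SE 0.23, adjusted p = 0.00182 from limma), and 0.95 after median centring. The same centring took the difference between the PGCLCs to 1.00, just under the 2-fold minimum, and that between pESC-PGCLCs and pESCs to 0.40, which was 0.76 after quantile normalization and not called in either case. In PGCs Sgce was at 1.34 and 1.62 TPM, 8.29 times ESC-PGCLCs with a counting interval from 5.07 to 14.5 (1.09, SE 0.16, adjusted p = 0.00329). This call was lost without ESC-PGCLC replicate 2, the library with 2 reads (0.93, adjusted p = 0.0204), after median centring (0.48), after quantile normalization (0.71) and in the fit of the compared groups alone (adjusted p = 0.0681). Against pESC-PGCLCs the difference was -0.32 (adjusted p = 0.237). Among the germ cell groups the order of Sgce was that of the summed blood markers given above, highest in pESC-PGCLCs and lowest in ESC-PGCLCs. The gonadal and fibroblast markers were also lowest in ESC-PGCLCs, but their highest sums were in PGCs. By group mean, Peg3, Usp29, Zim1, Mest, Copg2, Peg10 and Ppp1r9a had the order of these sums among the germ cell groups, while Asb4 was lowest in pESC-PGCLCs. The PGCLC libraries overlapped for Usp29, Zim1 and Ppp1r9a. The part of such cells in these differences was not tested.

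Asb4 was at 0.690 and 0.663 TPM in ESCs and at 0.0579 and 0.411 TPM in pESCs, with 2 and 14 reads in the latter. The ratio of reads was 0.345 with an exact counting interval from 0.185 to 0.611, but the pESC libraries lay well apart from each other, and the log2 difference of -0.46 was not called (adjusted p = 0.257 from limma). In both differentiations Asb4 rose. It was at 16.4 and 20.4 TPM in ESC-PGCLCs, 27.2 times the level of ESCs (3.52, SE 0.19, adjusted p = 6.2e-06). In pESC-PGCLCs it was at 13.1 and 14.2 TPM, 58.7 times the level of pESCs with a counting interval from 36.0 to 103 (3.58, SE 0.19, adjusted p = 8.9e-06). The differences on the log2 scale were close, and the interaction was 0.06 with an interval from -0.56 to 0.68. PGCs were at 19.5 and 20.4 TPM and overlapped with ESC-PGCLCs.

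Ppp1r9a was under 0.3 TPM in all stem cell libraries, at 0.299 and 0.243 TPM in ESCs and 0.196 and 0.286 TPM in pESCs, and these overlapped. It was at 0.781 and 0.659 TPM in ESC-PGCLCs and 0.816 and 0.731 TPM in pESC-PGCLCs, 2.66 and 3.21 times their stem cells. Because of the pseudocount these were log2 differences of 0.44 and 0.52 (adjusted p = 0.0354 and 0.0185 from limma), under the 2-fold minimum, and with a pseudocount of 0.1 TPM both were called (1.14 and 1.37). After median centring the second was -0.21. In PGCs Ppp1r9a was at 1.42 and 1.83 TPM, 2.10 times pESC-PGCLCs (0.56, adjusted p = 0.0491) and 2.26 times ESC-PGCLCs (0.61, adjusted p = 0.0155), again under the minimum on this scale. After median centring these differences were 0.37 and 0.00, and after quantile normalization 0.35 and 0.21.

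Ordered by group mean TPM, 8 of the 9 genes were highest in PGCs, and Sgce was highest in pESC-PGCLCs. Peg10 is among the 8 on its few reads, and it passed the filter through the PGC libraries alone. The share of all genes highest in PGCs was not counted. Between PGCs and ESC-PGCLCs 3260 of all genes were called higher and 512 lower, and 712 and 2003 after median centring. The same centring put Usp29 (-0.24) and Asb4 (-0.49) lower in PGCs than in ESC-PGCLCs. The lowest group was pESCs for Peg3, Usp29, Mest, Copg2, Ppp1r9a and Asb4, ESCs for Zim1 and ESC-PGCLCs for Peg10 and Sgce. Neighbours in this order had overlapping libraries for Usp29 and Zim1 (ESC-PGCLCs and pESC-PGCLCs), Ppp1r9a (pESCs and ESCs, and both PGCLC groups) and Asb4 (ESC-PGCLCs and PGCs).

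The annotated neighbours of the 3 domains were counted to set the 9 genes in their surroundings. Of 27 counted, 23 were in the table and 18 were tested. Between pESCs and ESCs limma called 0 of the 18, with 1 at an unadjusted p under 0.05 and 0 called by voom, and their median difference was 0 against -0.06 over all genes. Over all genes 4838 of 27259 were at an unadjusted p under 0.05. In that comparison Cep41, which lies next to Mest, was at 2.16 and 2.40 TPM in ESCs and 1.39 and 2.13 TPM in pESCs. Between pESC-PGCLCs and ESC-PGCLCs 2 were called, both higher in pESC-PGCLCs, against 13.4% of all genes called, and Cep41 was called lower after quantile normalization or median centring. These were the pancreatic-type carboxypeptidase gene Cpa1 (0.360 and 0.281 against 6.71 and 6.80 TPM, log2 difference 2.56, adjusted p = 9.4e-05 from limma), which lies upstream of Mest, and Gng11, a G protein gamma subunit gene of the Peg10 domain (2.29 and 1.07 against 8.05 and 5.32 TPM, 1.54, adjusted p = 0.00992). The median over the 18 was 0.23 against 0.12 over all genes.

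From ESCs to ESC-PGCLCs 7 of the 18 neighbours rose and 0 fell, against 15.3% of all genes called higher. An unadjusted p under 0.05 from limma was found for 13 of the 18, and for 14219 of all 27259 genes. From pESCs to pESC-PGCLCs 9 rose and 0 fell, against 20.8% of all genes called higher. Here 14 of the 18 had an unadjusted p under 0.05 from limma, as did 13965 of all 27259 genes. After median centring 8 and 7 were called higher and 0 lower, and after quantile normalization 6 and 8 higher and 0 lower. The median over the 18 was 0.64 against 0.05 over all genes in the first comparison and 1.05 against 0.22 in the second, and 0.32 against -0.51 in the second after median centring. Zfp264, Cep41, Gng11, Bet1, Casd1, Pon3 and Dync1i1 rose in both. Cep41 reached 19.4 and 22.1 TPM in ESC-PGCLCs (2.73, adjusted p = 1.7e-05 from limma), while Copg2 and Mest did not rise there. Bet1, a vesicle transport gene, went from 29.2 and 28.8 TPM in ESCs to 102 and 105 TPM (1.80, adjusted p = 0.000128), and Dync1i1, a dynein subunit gene, from 0.334 and 0.118 to 6.83 and 6.40 TPM (2.64, adjusted p = 3.4e-05). Zfp264, which lies beyond Usp29, went from 0.690 and 1.16 TPM to 9.80 and 7.29 TPM (2.31, adjusted p = 6.9e-05). Pon3, a paraoxonase gene, went from 1.15 and 1.32 TPM to 3.91 and 3.27 TPM (1.03, adjusted p = 0.00208), and Pon2 was called in pESC-PGCLCs alone (1.19, adjusted p = 0.00115), a difference between origins that was not called (0.71, adjusted p = 0.0865). Casd1, next to Sgce, was 1 of 2 neighbours with a called interaction (1.09, adjusted p = 0.0224), with Cpa1 (2.56), against 19.1% of all genes. After quantile normalization or median centring Cpa1 was the 1 neighbour with a called positive interaction, beside 0 and 2 negative ones (Cep41 and Dlx6) in that order. Between PGCs and ESC-PGCLCs Cpa1, Gng11 and Casd1 were called, all higher in PGCs, against 13.8% of all genes, and after quantile normalization or median centring Cpa1 was the 1 neighbour called higher, beside 0 and 1 (Bet1) called lower. Between PGCs and pESC-PGCLCs limma called 0 neighbours, with 5 at an unadjusted p under 0.05, against 7955 of all 27259 genes, and 0 called by voom.

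Factors known to keep, set or remove imprints were counted as a second list of 14 genes, all tested. Between pESCs and ESCs 1 was called, Dppa3, which protects maternal methylation in the zygote, at 353 and 378 TPM in ESCs and 709 and 873 TPM in pESCs (log2 difference 1.10, adjusted p = 0.0435 from limma), against 0.781% of all genes. It was called after median centring and not after quantile normalization. The list's median there was -0.35 against -0.06 over all genes. Between the PGCLCs 1 of the 14 was called, against 13.4% of all genes. This was Trim28, the corepressor that ZFP57 recruits to methylated imprints. It was at 40.7 and 34.4 TPM in ESC-PGCLCs and 112 and 118 TPM in pESC-PGCLCs (1.60, adjusted p = 0.00107 from limma). In the differentiation of ESCs 5 rose and 4 fell, against 29.8% of all genes called, and in that of pESCs 6 rose and 4 fell, against 27.6%. Those that fell were Zfp57, Uhrf1, Dnmt3b and Dnmt3l in each. The second split became 3 higher and 6 lower after median centring and 4 higher and 6 lower after quantile normalization, with Tet1 and Tet2 added to those lower, while the first stayed at 5 and 4. Zfp57 itself was at 29.3 and 19.6 TPM in ESCs and 9.29 and 11.4 TPM in pESCs (-1.15, adjusted p = 0.0790) and at 0.0555 to 1.68 TPM in the 4 PGCLC libraries. Between PGCs and ESC-PGCLCs 3 were called, all higher in PGCs, against 13.8% of all genes. Between PGCs and pESC-PGCLCs 1 was called, against 3.67%, and for the interaction 5, against 19.1%.

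The genes whose levels most resembled those of the name genes were taken as the 3 with the highest Pearson's r of log2(TPM + 1) over the 10 libraries, among 16677 genes. The libraries form 5 groups of 2, so the points are not independent and r is given as a description. For Peg3 these were Copb2 (0.998), Suv39h2 (0.997) and Mbnl3 (0.996). Asb4 was at rank 603 (0.973), Usp29 at rank 772 (0.970) and Mest at rank 7401 (0.693). After median centring Asb4 was at rank 185 (0.969) and Usp29 at rank 3158 (0.804). For Mest the first 3 were Immt (0.979), Pithd1 (0.976) and Fhl1 (0.970), with Copg2 at rank 4 (0.967). After median centring 0 of these 3 stayed among the first 3, which were Copg2 (0.954), Nsun2 (0.943) and Emc3 (0.918). For Peg10 they were Ddb1 (0.968), Cox15 (0.965) and Alyref2 (0.964), on 0 to 8 Peg10 reads per library, and 0 of these 3 stayed among the first 3 after median centring.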

How the data were processed

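RNA-seq of 10 mouse libraries, 2 in each of 5 groups taken from the labels, was analysed. The authors deposited TPM per gene symbol. According to the study's methods reads were mapped to mm10 with Hisat2 and counted with Feature-counts, and the submitters' processing notes also name Bowtie2, RSEM, DESeq2 and R 3.4.2. The labels and the methods differ on library preparation (NEBNext Ultra or Smart-seq2). Of the symbols, 35861 matched 1 gene of GENCODE M21, and TPM times merged exon length, with a factor per library, gave whole reads (within 0.02, counted up to 200 reads). All values of the 9 genes were whole within 0.1. Intervals from reads cover counting error only.

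The TPM values were analysed as log2(TPM + 1) with limma 3.58.1 (R 4.3.3), empirical Bayes with a mean-variance trend, on all 10 libraries (5 residual and 2.81 prior degrees of freedom), two-sided, with Benjamini-Hochberg adjustment over 27259 genes. Genes needed 0.1 TPM in 2 libraries, and calls an adjusted p under 0.05 and 2-fold. The main test was checked on simulated counts. The 9 genes, the lists of neighbours and regulators and the markers were chosen with earlier results of these data known. All 9 genes were to be named in each comparison, neighbours where called and at 1 TPM or more on average in the higher group, and regulators where called between origins. Zfp57, the other regulators named and the values of Cep41 in stem cells were added after their values were seen. One neighbour of the list as first written is not reported here and is in none of its counts. Promoter windows are from RefSeq (GRCm38.p6), matched for 7 of the 9 genes, with 11 windows. Alternatives were a pseudocount of 0.1 TPM, filters of 1 TPM and none, the compared groups alone, quantile normalization, centring of libraries by the median of 9024 genes found at 1 TPM or above in all 10, replicate as a block, no fold minimum and leaving out each library. Voom on recovered reads was added after the data were seen. Tables were made in Python 3.11.15 (numpy 2.4.6, pandas 2.3.3) and figures with matplotlib 3.10.9.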

Additional observations from a re-analysis of the deposited data

Results flagged for a closer look

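The effect of differentiation differed between the ESC and pESC origins for 4 of the 9 genes, by limma's test of the interaction itself, against 19.1% of all genes. Positive interactions were the more common over all genes, with 4236 called against 961 negative ones, but 1727 against 4062 after median centring. On the log2 scale the difference of pESC-PGCLCs from pESCs exceeded that of ESC-PGCLCs from ESCs by 4.10 for Mest, 2.85 for Copg2, 1.70 for Sgce and 1.50 for Peg3, with adjusted p of 0.000323, 0.000574, 0.00182 and 0.00376 from limma. For Mest the 2 differences had opposite signs (-1.17 and 2.93). For Copg2 they were -0.26 and 2.59, for Sgce -0.57 and 1.13, and for Peg3 2.05 and 3.55. All 4 interactions were called in each of the 8 fits that left out 1 library. After median centring those of Peg3 (0.76) and Sgce (0.95) were under the 2-fold minimum and not called, and after quantile normalization that of Peg3 (0.88) was not, while those of Mest and Copg2 were called under both.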

How the results depend on the processing

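With 2 libraries a group, and 0 to 8 reads for Peg10, depth and replication limit the lowest genes. Over 56 differences of the 8 genes other than Peg10, 704 alternative values gave 622 with the same direction and side of the threshold, 18 newly called, 31 no longer called and 33 turned in sign. None of the 21 called differences turned, and 8 were called under every alternative. Calls lost numbered 10 after median centring, 8 after quantile normalization and 6 with the compared groups alone. The causes were not tested.

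The number of the 9 genes called between pESCs and ESCs was 3, and 0 in the fit of these groups alone. Between the PGCLCs it was 1, 0 after median centring and 2 without a fold minimum. Between ESC-PGCLCs and ESCs it was 3, and 7 with a pseudocount of 0.1 TPM, without a fold minimum and by voom. Between pESC-PGCLCs and pESCs it was 7, and 4 after quantile normalization or median centring. Between PGCs and ESC-PGCLCs it was 3, 5 with a pseudocount of 0.1 TPM, 0 with the compared groups alone or after median centring, 1 after quantile normalization, and 6 without a fold minimum or by voom. Between PGCs and pESC-PGCLCs it was 0, and 1 without a fold minimum or by voom. For the interaction it was 4, and 2 after median centring. Leaving out 1 library gave 2 to 3, 1 to 1, 3 to 4, 5 to 7, 3 to 4, 0 to 0 and 4 to 4 in the same order.

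Same-numbered libraries of different groups had correlated deviations of -0.0936 to 0.347 over 10 pairs of groups (mean 0.0617), so the numbers were not taken to pair the samples. With replicate as a block the 9 genes gave 2, 1, 3, 7, 3, 0 and 4 calls, and Peg3 between pESCs and ESCs was the 1 call lost (-1.09, adjusted p = 0.0652 from limma). The block moved the count over all genes by more than 1.5 times between pESCs and ESCs alone, from 213 to 78.

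All values that turned in sign were of differences not called. After median centring these were, between pESCs and ESCs, Usp29 0.28, Sgce 0.04 and Ppp1r9a 0.30, between the PGCLCs, Usp29 -0.38, Zim1 -0.19 and Ppp1r9a -0.36, Ppp1r9a -0.21 between pESC-PGCLCs and pESCs, Usp29 -0.24 and Asb4 -0.49 between PGCs and ESC-PGCLCs, and for the interaction Usp29 -0.66, Zim1 -0.55, Ppp1r9a -0.66 and Asb4 -0.68. After quantile normalization they were Usp29 -0.20 and Ppp1r9a -0.14 between the PGCLCs, Usp29 -0.08 and Asb4 -0.47 between PGCs and ESC-PGCLCs, and Usp29 -0.15, Zim1 -0.05, Ppp1r9a -0.13 and Asb4 -0.28 for the interaction. By voom they were Usp29 -0.07 and Ppp1r9a -0.01 between the PGCLCs and Zim1 -0.86 for the interaction. Leaving out 1 library gave -0.09 to 0.02 for Ppp1r9a between pESCs and ESCs, -0.04 to 0.09 for Usp29 and -0.01 to 0.10 for Ppp1r9a between the PGCLCs, -0.03 to 0.27 for Asb4 between PGCs and ESC-PGCLCs, and -0.03 to 0.41 for Zim1 and -0.15 to 0.27 for Asb4 for the interaction.

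Over all genes, the 213 calls between pESCs and ESCs became 402 with the filter of 1 TPM, 132 with no filter, 0 with these groups alone, 122 after quantile normalization, 459 by voom and 30 to 953 without 1 library. Without a fold minimum 3651 became 6496 between the PGCLCs, 8122 became 12637 between ESC-PGCLCs and ESCs, 7535 became 12160 between pESC-PGCLCs and pESCs, 3772 became 8471 between PGCs and ESC-PGCLCs, and 1000 became 2438 between PGCs and pESC-PGCLCs. By voom there were 12295 between ESC-PGCLCs and ESCs, 11317 between pESC-PGCLCs and pESCs and 1956 between PGCs and pESC-PGCLCs. Between PGCs and ESC-PGCLCs there were 6140 calls with a pseudocount of 0.1 TPM, 1906 after quantile normalization and 0 with these groups alone. Between PGCs and pESC-PGCLCs there were 0 with these groups alone and 34 to 1966 without 1 library, and for the interaction 5197 in all and 3305 without ESC replicate 1.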
